A study of Zea mays with 2 samples.

Results

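A KN1 peak was counted as shared when the deposited list assigned it to 2 or more different nuclear genes. This held for 330 of the 21079 peaks that were assigned to nuclear genes on the 10 chromosomes, or 1.57% (exact Clopper-Pearson 95% interval 1.402 to 1.74%), out of 21437 listed peaks in all. The members were chosen by gene assignment, not by enrichment. Of these peaks, 323 had 2 genes, 6 had 3 genes and 1 had 6 genes, and 625 genes were involved.

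KN1 (KNOTTED1) is a KNOX-class homeodomain protein that acts as a transcription factor in shoot meristems and is known for its role in keeping cells there undifferentiated. It binds DNA near target genes, and a site between closely spaced genes cannot be given to either of them by position. Neighbouring genes are called divergent when their starts face each other, so that a single stretch can serve as a promoter for both. They are called convergent when their ends face each other, and tandem when both are read in the same direction.

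Chromatin came from leaf protoplasts, cells without walls, of dark-grown seedlings of B73, a maize inbred line. The cells had been transfected with the p1107-KN1 plasmid, which carries KN1 with a biotin ligase recognition peptide (BLRP), and the tagged protein was overexpressed. The libraries, 1 of ChIP DNA and 1 of input DNA, were both from such cells, and each condition was measured once. No value below has a replicate error, and intervals cover the counting of peaks or reads within this pair of libraries. Neighbouring peaks are not independent, and ChIP from cells without the tagged protein was not analysed here.

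Fold enrichment is the authors' linear ratio of ChIP over input at the peak summit, its highest point. The number of ChIP reads stacked at the summit (the pileup) and the input level beside it were solved from the authors' fold and p-value. Among the shared peaks the pileup ranged from 9 to 235 reads. Counting error alone gives an exact Poisson 95% interval of 4.12 to 17.1 for 9 reads and 206 to 267 for 235. Input stood at the genome-wide floor of 1.85 for all but 27 shared peaks (8.18%), a share close to the 7.94% of all chromosomal peaks, and never exceeded 4.02. Raised input therefore touched few of the values given here.

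The shared peaks were in practice peaks that physically touched every gene they were assigned to. Contact with all listed genes was found for 320 of them. The other 10 lay 12 to 3165 bp away from gene models with a common border, so that the distances were equal. Conversely, 0 peaks with a single gene shared a base with a second listed gene. In peaks that spanned a gap between genes, the smaller of the overlaps had a median of 126 bp and ranged from 2 to 852 bp. Just inside the rule, 32 such peaks overlapped a gene by at most 50 bp and had a median fold of 12.97. Just outside it, 23 peaks over a single gene ended within 50 bp of a second listed gene and had a median fold of 16.8.

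Overlapping gene models made up the most common arrangement. They accounted for 188 peaks, or 57.0% of the shared peaks (95% interval 51.4 to 62.4%). Divergent pairs followed with 62 peaks (18.8%, 14.7 to 23.4%), tandem pairs with 50 (15.2%, 11.5 to 19.5%) and convergent pairs with 23 (6.97%, 4.47 to 10.3%). The remaining 7 peaks had more than 2 genes. Divergent peaks thus outnumbered convergent ones 2.70 to 1 (95% interval 1.65 to 4.56).

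**Figure D1:**
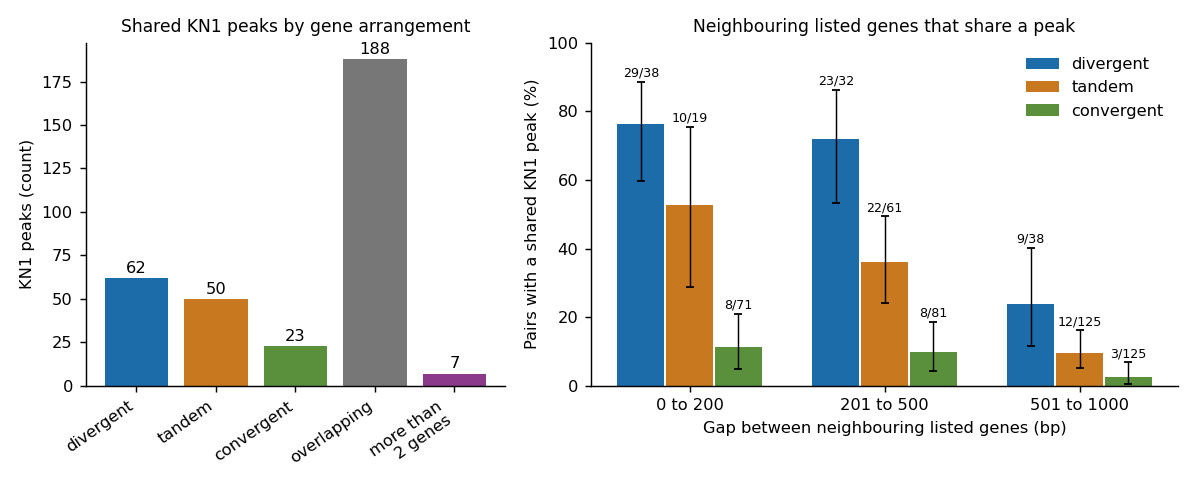
Left, number of shared KN1 peaks by gene arrangement (bars, count on the y axis). Right, percent of neighbouring listed gene pairs that share a peak (y axis) by gap in bp (x axis) and arrangement, with exact 95% intervals and the counts above each bar. Divergent pairs share a peak in 29 of 38 cases at gaps of up to 200 bp, and convergent pairs in 8 of 71.

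Close divergent pairs in the list shared a peak more often than close convergent pairs, a count that is shaped by how pairs enter the list. The list holds 590 neighbouring pairs of non-overlapping genes at most 1000 bp apart, and 124 of them shared a peak. Divergent pairs did so in 61 of 108 cases (56.5%, 95% interval 46.6 to 66.0%), tandem pairs in 44 of 205 (21.5%, 16.0 to 27.7%) and convergent pairs in 19 of 277 (6.86%, 4.18 to 10.5%). Among the 466 pairs without a shared peak, 47 were divergent, 161 tandem and 258 convergent. Such a pair is listed only where each gene has a separate peak of its own, so these counts are no background for the ratio of 2.70.

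The order of the arrangements was the same at every spacing. At gaps of up to 200 bp the share was 76.3% for divergent, 52.6% for tandem and 11.3% for convergent pairs. Above 200 and up to 500 bp it was 71.9%, 36.1% and 9.88%. Above 500 and up to 1000 bp it was 23.7% for divergent and 9.60% for tandem pairs, and 3 of 125 convergent pairs shared a peak. The intervals of divergent and tandem pairs overlapped in the closest and the widest of these bands, and those of tandem and convergent pairs in the widest. A pair enters this count either through the shared peak or because each gene has a peak of its own, so these percentages are not shares of all annotated pairs. Gene pairs without a listed peak were not analysed here, and the difference between the arrangements was described without a test.

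Divergent pairs placed KN1 between or just inside facing gene starts. The gap between the starts had a median of 232 bp (quartiles 127 and 446 bp, range 17 to 1021 bp), and the peaks a median width of 647 bp. The summit lay within 200 bp of a gene start in 54 of 62 peaks (87.1%), at a median of 95.5 bp from the nearer and 241 bp from the farther start. In 21 peaks both starts were within 200 bp of the summit, and in 51 within 500 bp. A peak that touches both genes of a divergent pair must reach both starts, so the arrangement sets part of this closeness.

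Within divergent pairs the summit was found about as often in the gap as inside a gene. It lay in the gap in 30 peaks (48.4%, 95% interval 35.5 to 61.4%), inside a gene in 31 and beyond the far end of a short gene in 1. With gaps of up to 200 bp it fell in the gap in 7 of 29 peaks, and with gaps above 200 and up to 500 bp in 16 of 23. The nearer start belonged to the longer gene in 34 peaks and to the shorter gene in 28. The shorter partner had a median length of 2060 bp and the longer one of 4918 bp. A partner under 500 bp was present in 8 pairs.

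The strongest divergent peak lay on chromosome 2 at 1526302 to 1527664, with 75.4-fold enrichment from 214 ChIP reads over an input of 1.85. It joined Zm00001d001823 (1523935 to 1526867, minus strand) and Zm00001d001824 (1527403 to 1528307, plus strand), whose starts are 535 bp apart. Its summit was 196 bp inside the first of them, in the annotated gene, and 732 bp before the start of the other. The next was on chromosome 6 at 60491616 to 60492895, with a fold of 72.2 and a pileup of 205 reads. It covered a 190-bp gap between Zm00001d035925 and Zm00001d035926, and its summit was 239 bp inside the latter. The third, on chromosome 7 at 151060679 to 151061914, had a fold of 55.4 and 157 reads and spanned 236 bp between Zm00001d021400 and Zm00001d021401. There the summit was 35 bp inside Zm00001d021400. In all 3 of these pairs the summit was thus inside an annotated gene and not in the gap.

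The weakest divergent peak rested on few reads. On chromosome 5 at 222067552 to 222067956, it joined Zm00001d018506 and Zm00001d018507 across 178 bp with a fold of 3.42 and a pileup of 11 reads. The strongest of the 21 peaks with both starts within 200 bp was on chromosome 4 at 169925417 to 169926595, between Zm00001d051795 and Zm00001d051796. These starts are 100 bp apart, the summit lay between them at 20 and 81 bp, and the fold was 45.6. This peak and the weakest one were picked after their values were seen.

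Tandem pairs offered a start and an end on opposite sides of a single gap, and KN1 summits showed no detectable preference for either. The gap had a median of 374 bp (quartiles 225 and 660 bp). The summit was on the side of the downstream gene's start in 26 of 50 peaks (52.0%, 95% interval 37.4 to 66.3%), and on the side of the upstream gene's end in 24. A two-sided exact binomial test against an even split gave p = 0.888 (1.0 after Benjamini-Hochberg adjustment over 3 tests). With peaks required to overlap each gene by at least 50 bp the direction turned, with 16 of 36 summits nearer the start (44.4%, exact binomial p = 0.618).

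The median distance of tandem summits was 203 bp from the downstream start and 232 bp from the upstream end. The start was within 200 bp in 25 peaks and the end in 22. The summit lay in the gap in 36 of 50 peaks (72.0%, 95% interval 57.5 to 83.8%). It lay in or beyond the upstream gene in 6 and in or beyond the downstream gene in 8. A summit beyond both genes was found at the peak on chromosome 3 at 213451191 to 213451798. It lay 71 bp before the start of the upstream gene, Zm00001d000697. Both borders of the gap are reached by every one of these peaks, so the comparison holds no peak that covers a start or an end alone.

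At the strongest tandem peak, on chromosome 1 from 7563360 to 7564715, the fold was 80.6 and the pileup 229 reads. Its summit lay 227 bp past the end of Zm00001d027532 (7558685 to 7564087) and 145 bp before the start of Zm00001d027533 (7564459 to 7567651), both on the plus strand. On chromosome 7, a peak at 163562025 to 163563279 had a fold of 76.4 and 217 reads. Its summit was inside the upstream gene Zm00001d001269, 58 bp from its end and 435 bp before the start of Zm00001d021816, both short models on the minus strand. The third, on chromosome 3 at 217221573 to 217222948, had a fold of 75.4 and 214 reads, and its summit was nearly centred between the end of Zm00001d044026 (288 bp) and the start of Zm00001d044027 (283 bp).

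Convergent pairs were the rarest of the 2-gene arrangements, and here KN1 lay between facing gene ends. The gap had a median of 368 bp (range 36 to 1380 bp). The summit lay in the gap in 13 of 23 peaks (56.5%, 95% interval 34.5 to 76.8%), inside a gene in 9 and beyond both in 1. An annotated gene end was within 200 bp of the summit in 14 peaks, and a gene start in 2. The starts in these 2 belong to models of 71 and 84 bp. A peak that touches both genes of a convergent pair must reach both ends, so the arrangement sets part of this contrast. The share of summits in the gap did not differ detectably from that in divergent pairs (odds ratio 0.721, 95% interval 0.244 to 2.097, Fisher's exact test p = 0.627, adjusted p = 1.0). With 23 convergent peaks, an odds ratio anywhere in that wide interval cannot be set aside.

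The highest fold among the shared peaks that spanned a gap, 82.7, belonged to a convergent pair. This peak, on chromosome 9 at 15994229 to 15996192, had a pileup of 235 reads and was 1964 bp wide. Its summit lay in a gap of 1328 bp, 530 bp past the end of Zm00001d045203 (15993040 to 15994740, plus strand) and farther from that of Zm00001d045204 (15996069 to 15996644, minus strand). A similar layout was found on chromosome 10 at 109656363 to 109658191, between Zm00001d025217 and Zm00001d025218, with a fold of 77.1, 219 reads and a gap of 1380 bp. The third, on chromosome 6 at 167832905 to 167834433, had a fold of 68.4 and 194 reads, with a gap of 1237 bp between Zm00001d038963 and Zm00001d038964. All 3 summits were in the gap, at least 1374 bp from any start of either gene.

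**Figure D2:**
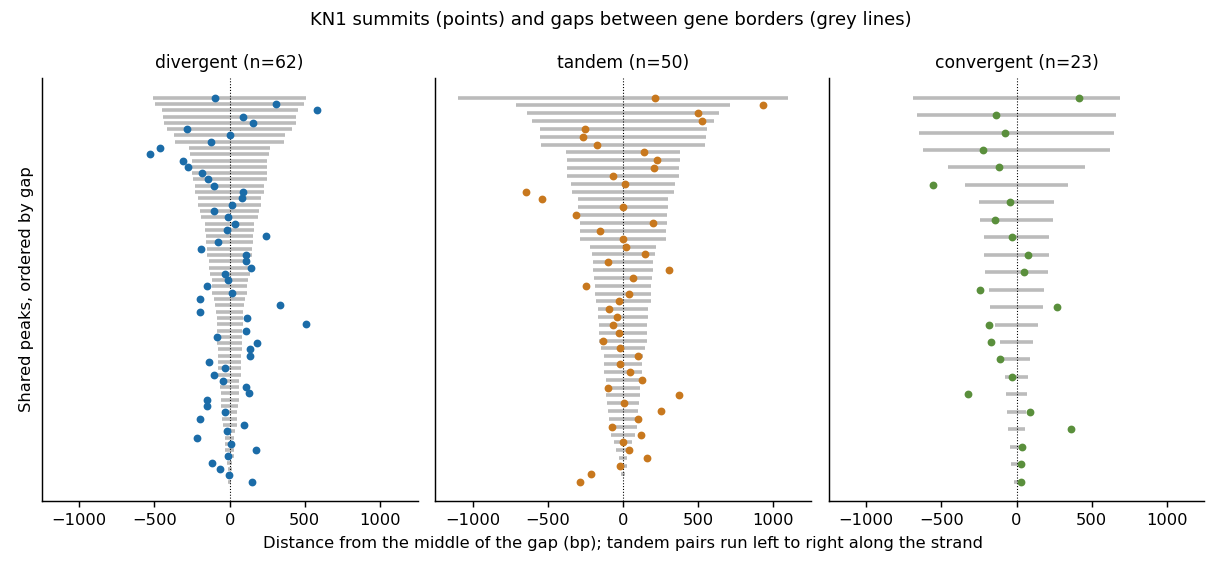
Summits of shared KN1 peaks (points) and the gap between the facing gene borders (grey lines), in bp from the middle of the gap (x axis), with 1 row per peak ordered by gap. Tandem pairs are turned so that the upstream gene is on the left. Points fall on both sides of the middle in each panel, and 79 of 135 lie on their grey line.

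Among overlapping gene models, same-strand pairs were the most frequent. They held 79 of 188 peaks (42.0%, 95% interval 34.9 to 49.4%). Genes nested in a gene of the opposite strand held 45, pairs that overlap at their ends 34 and pairs that overlap at their starts 30. The shared stretch had a median of 1042 bp. Over all 188 peaks the summit lay in both genes in 76 (40.4%), in a single gene in 72 (38.3%) and outside both in 40 (21.3%).

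Some same-strand pairs were close copies of the same interval. In 21 of 79 peaks the shared stretch covered at least 80% of the longer model, and in 14 the models had an identical start. The pairs that share at least 80% list nearly the same interval under separate identifiers. Models with an identical start can differ in length, as with 93328 and 7390 bp for Zm00001d027472 and Zm00001d027475. The summit lay outside both models in 28 of these 79 peaks, in both in 31 and in a single one in 20. Of those 28 peaks, 9 touched neither model and were listed through equal distances. A start was within 200 bp of the summit in 42 of the 79 peaks (53.2%).

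Pairs that overlapped at their starts held KN1 near a start, and pairs that overlapped at their ends did not. A start lay within 200 bp of the summit in 23 of 30 peaks with overlapping starts (76.7%, 95% interval 57.7 to 90.1%) and in 2 of 34 with overlapping ends (5.88%, 0.720 to 19.7%). The arrangement sets part of this difference, since contact with both genes places a peak at their common stretch. The median fold was 9.29 (95% interval 7.36 to 13.7) at overlapping starts and 6.66 (5.61 to 8.76) at overlapping ends, and these intervals overlap. In nested pairs on opposite strands the inner gene was short (median 1450 bp, against 8006 bp for the outer gene). Its start was the nearer of the starts in 39 of 45 peaks, at a median of 252 bp. The arrangement sets part of this too, since each peak had to touch the short inner gene.

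The strongest peak over overlapping models had a fold of 79.2 and 225 reads. It lay on chromosome 8 at 128601297 to 128603350, over the last part of Zm00001d010811 (128600595 to 128623332, minus strand) and the start of Zm00001d010812 (128602960 to 128604732, plus strand), which is nested in it. The summit was 684 bp before the start of the inner gene. A peak on chromosome 5 at 214438891 to 214439761 had a fold of 72.9 and 207 reads. Its summit was inside Zm00001d018106 and 541 bp before the start of Zm00001d018105, both on the minus strand. This peak overlapped Zm00001d018105 by only 5 bp. The third, of 64.9-fold, lay on chromosome 2 and belonged to a pair with several shared peaks.

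**Figure D3:**
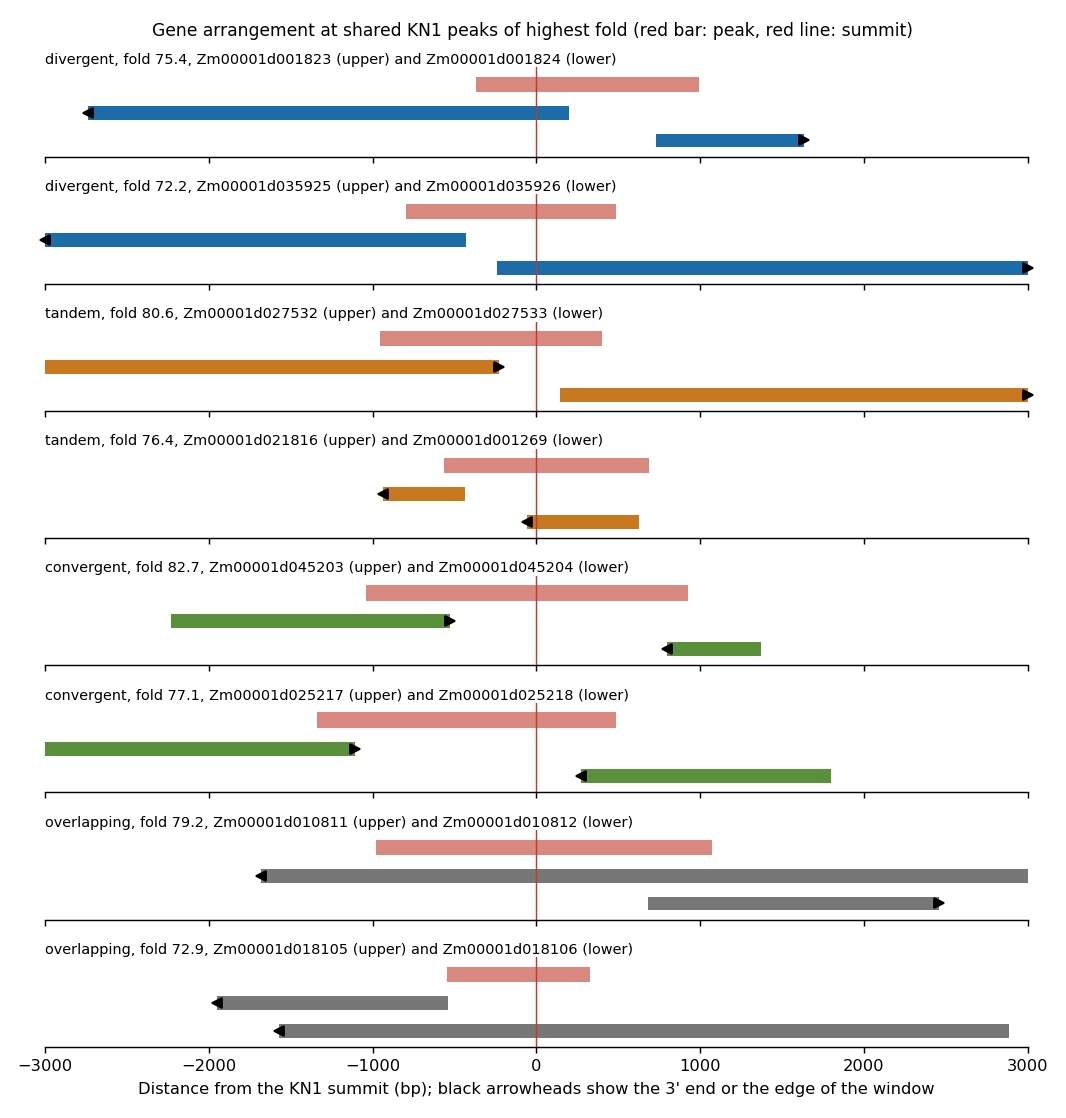
Gene models (bars) around the 2 shared peaks of highest fold in each arrangement, in bp from the KN1 summit (x axis), with the peak in red and arrowheads for the direction of transcription. Each row is drawn to the same scale and shows the fold, from 72.2 to 82.7. The summit is inside a gene in both divergent rows and in the gap in both convergent rows.

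All 16 sets of genes with more than a single shared peak were overlapping pairs. Of these, 15 shared 2 peaks and 1 shared 3. In the strongest set, Zm00001d002782 (22573347 to 22574486) lies inside Zm00001d002781 (22563741 to 22576668), both on the plus strand of chromosome 2. The peak at 22572513 to 22573582 had a fold of 64.9 and 184 reads, with its summit 326 bp before the start of the inner gene. A second peak at 22573909 to 22574481, inside both genes, had a fold of 9.82 and 27 reads.

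The next sets by fold also had peaks of unequal fold. Zm00001d017752, nested on the minus strand in Zm00001d017751 on chromosome 5, had a peak of 60.1-fold with the summit 184 bp before its start (210 reads, input 2.51). The second peak, inside both genes, had a fold of 5.61. Zm00001d006471 on chromosome 2 is nested in Zm00001d001010, a model of 194478 bp, and had a peak of 29.1-fold with the summit 191 bp before its start and another of 8.06-fold inside it. The nearly coincident models Zm00001d052164 and Zm00001d052165 on chromosome 4 overlap by 3364 bp and shared peaks of 25.9-fold and 4.91-fold, both inside the models.

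The peaks with more than 2 genes were mostly stacks of gene models on the same strand, as in 5 of 7. The strongest, on chromosome 1 at 230536980 to 230537615, had a fold of 45.6 and 129 reads. Its summit was past the end of Zm00001d022932 and 39 bp before the common start of Zm00001d022933 and Zm00001d022934. The peak with 6 genes, on chromosome 3 at 23369809 to 23370915, had a fold of 29.8 and 84 reads. Its models, Zm00001d040026 and Zm00001d000492 to Zm00001d000496, start within a few bases of each other on the minus strand, and the summit lay 1112 to 1116 bp inside each. The next peaks in order of fold had 13.95, 9.82, 6.31 and 6.31, on chromosomes 5, 10, 7 and 9. The one on chromosome 9, at 18800821 to 18801380, lay between the facing starts of Zm00001d045313 and Zm00001d045314, both inside Zm00001d045312.

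Shared peaks that spanned a gap had a higher median fold than all listed chromosomal peaks, and those over overlapping models a similar one. The median fold was 12.1 over all 330 shared peaks (95% interval 10.2 to 13.7), against 9.47 over all chromosomal peaks. It was 18.9 for the 135 peaks across a gap (15.1 to 24.9) and 9.11 over overlapping models (8.06 to 10.2). A fold of at least 10 was reached by 189 shared peaks (57.3%), by 103 of those across a gap (76.3%) and by 83 of those over overlapping models (44.1%), where the background was 47.4% of all chromosomal peaks. A fold of at least 20 was reached by 102 shared peaks (30.9%), against a background of 22.4%.

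**Figure D4:**
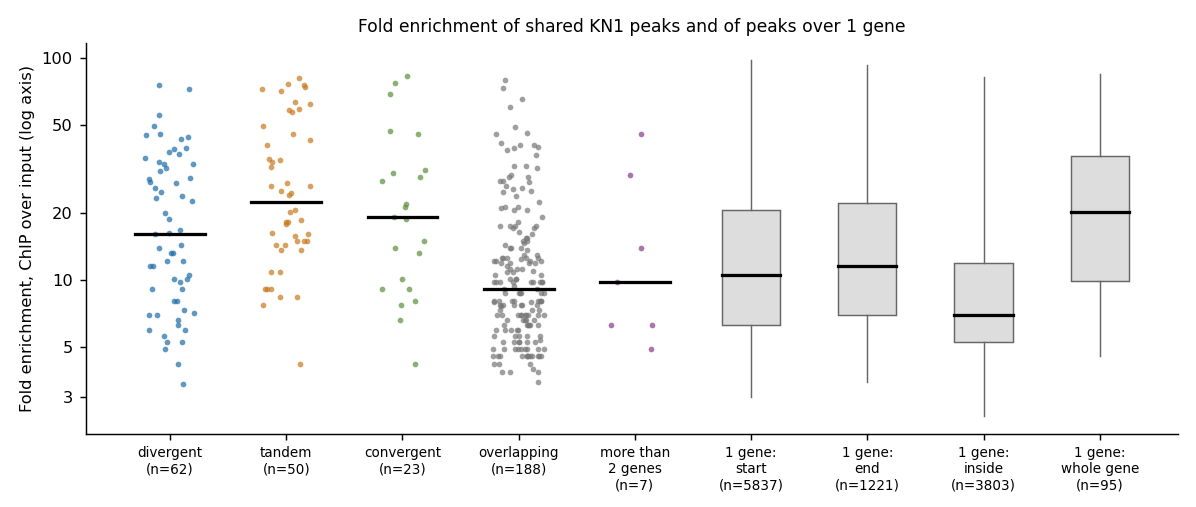
Fold enrichment of each shared KN1 peak (points, log y axis) by gene arrangement, with medians as black lines. Grey boxes give the quartiles, median and range of peaks that overlap 1 gene at its start, at its end, inside it or over its whole length. The medians of the gap-spanning arrangements, 16.2 to 22.4, lie above the medians for start, end and inside (7.01 to 11.6). They lie around the median for whole genes (20.3). The boxes for start and end reach up to 20.7 and 22.2, so the divergent and convergent medians lie inside both.

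The folds of the arrangements across a gap overlapped widely. The median was 16.2 for divergent (95% interval 11.6 to 25.9), 22.4 for tandem (16.1 to 34.0) and 19.3 for convergent peaks (10.2 to 30.2). The fold exceeded the median of all chromosomal peaks in 44 of 62 divergent and 17 of 23 convergent peaks (odds ratio 0.863, 95% interval 0.239 to 2.79, Fisher's exact test p = 1.0, adjusted p = 1.0). Over all chromosomal peaks, 49.0% (10336 of 21079) exceeded that median. Peaks that covered the start of a single gene had a median fold of 10.5, and those that covered the end of a single gene 11.6. The 95 peaks that covered a single gene from start to end, with a median width of 854 bp, had a median fold of 20.3 (95% interval 15.8 to 25.9), within the range of the gap-spanning arrangements. A fold of at least 10 was reached by 73.7% of them.

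Width moved with the higher fold of gap-spanning peaks. They had a median width of 778 bp, against 455 bp for all chromosomal peaks, and wider peaks spanned a gap more often. Peaks across a gap made up 0.118% of peaks under 400 bp (10 of 8456) and 3.62% of those of 1200 bp or more (38 of 1049). Over all widths the median fold was 18.9, against 9.11 for peaks that overlap a single gene. Within bands of width these medians lay nearer each other. The median was 6.84 against 5.61 under 400 bp and 11.6 against 12.6 from 400 to under 800 bp. It was 28.6 against 24.9 from 800 to under 1200 bp and 42.2 against 35.4 at 1200 bp and over. In each of these bands the 95% interval of the gap-spanning peaks contains the median of the others, which does not show that the folds are equal. From narrow to wide, these intervals were 4.21 to 10.2, 9.11 to 16.3, 18.9 to 34.0 and 26.6 to 58.5. Whether width accounts for the higher fold was not tested. Of the 12 peaks named as strongest in their arrangement, 10 were at least 1200 bp wide.

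**Figure D5:**
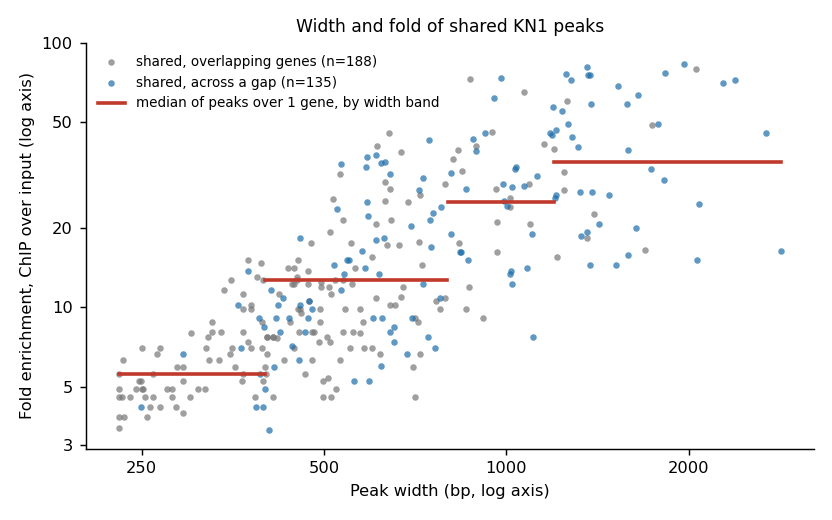
Width (x axis, bp, log scale) and fold enrichment (y axis, log scale) of each shared KN1 peak, across a gap (blue) or over overlapping models (grey). Red lines give the median fold of the peaks that overlap a single gene, by width band. The red lines rise from 5.61 to 35.4, and the blue medians in the same bands from 6.84 to 42.2. From narrow to wide, the grey medians were 5.78, 10.2, 28.6 and 27.7, against 5.61, 12.6, 24.9 and 35.4 for the red lines. From 400 to under 800 bp the 95% interval of the grey median, 8.76 to 11.9, lies below the red line.

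Genes of shared peaks had a further KN1 peak about as often as all listed genes. Of the 625 genes, 206 (33.0%) had at least 2 peaks of any kind, against 35.1% of the 13947 listed nuclear genes. A peak of their own, beside the shared one, was present at 178 (28.5%), a count with no matching share over all listed genes. Shared peaks occurred on all 10 chromosomes, from 1.41% of peaks on chromosome 7 to 1.68% on chromosome 6, with intervals that overlap. Chromosome 1 held 15 divergent shared peaks and chromosome 10 held 1.

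Identifiers of paired genes were often consecutive. This was so for 50 of 62 divergent, 21 of 23 convergent, 32 of 50 tandem and 131 of 188 overlapping pairs. Numbers more than 100 apart, which place a model outside the run of identifiers around it, were found in 11 divergent, 2 convergent, 16 tandem and 48 overlapping pairs. The RefSeq gene table at hand held 0 of the 625 identifiers, so the genes are given without symbols and their functions were not analysed here.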

How the data were processed

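ChIP and input DNA were sequenced from 1 library each, per the labels. Upstream tools, per the submitters' processing notes, were SAMtools 1.11, MACS2 (no version given), Bowtie2 2.4.2 and fastp 0.21.0. The genome build is not given in the sources used here. The gene identifiers are those of the B73 AGPv4 annotation. The authors deposited a table with 1 row per peak and gene. Its score, its fold (a linear ratio of ChIP over input), its −log10 p-value and −log10 q-value are the authors' own, at the summit. Peaks were called on the single pair of libraries, and the peak names hold an effective genome size of 700 Mb, on which the input floor and so the fold depend. The names also hold the word rmdup.

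Peak positions were made 1-based and gene positions kept as given. Genes sharing at least 1 base were called overlapping, and other pairs were classed by strand. Input was called raised when it was over the floor by more than 1%. Pileup and input were solved from fold = (pileup + 1) / (input + 1) and a Poisson upper tail, with relative errors of at most 4.90e-06. On 400 simulated peaks, class, gap, pileup and whether the summit lay in the gap were recovered in 100.0%. These were made with the same formulas and strand rules, so this checked the computation only. They held no overlaps of opposite strands and no peaks with more than 2 genes. Intervals of medians come from order statistics, those of shares are exact Clopper-Pearson intervals, and the 3 tests are exact. The named peaks are the 3 of highest fold in each of 4 arrangements, those with more than 2 genes up to the 6 of highest fold, and the 4 strongest pairs with several peaks. The members and rules were chosen with earlier results of these data known. Computations ran in Python 3.11.15 with scipy 1.17.1, pandas 2.3.3 and numpy 2.4.6, and plots were drawn in matplotlib 3.10.9.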

Additional observations from a re-analysis of the deposited data

How the results depend on the processing

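Under 7 alternatives, the number of shared peaks and the shares and median folds of the 4 arrangements were recomputed. So were the divergent to convergent ratio and the 3 tests, and 72 of 90 values counted as unchanged. For shares, medians and the ratio this meant a value within the reported interval. For tests it meant a direction that was not reversed and the same side of the threshold of 0.05. An even split counted as not reversed. The number of shared peaks was judged by size alone, and counted as unchanged in 5 alternatives (221 to 313 peaks). None of the 20 recomputed tests passed that threshold. The lowest p by Fisher's exact test was 0.266, for the summit in the gap (range 0.266 to 0.801), against 0.536 to 1.0 for the fold, and 0.454 to 1.0 for tandem summits by the exact binomial test. The ratio of divergent to convergent peaks ran from 2.41 to 3.78. Neighbouring gene pairs, width bands, kinds of overlap, sets with several peaks and identifiers were not recomputed. No paired analysis was possible because each group has 1 library.

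Stricter calling left fewer and stronger peaks by construction. With scores above the chromosomal median, 200 shared peaks remained, 21.5% of them tandem and 46.0% overlapping, and the median fold became 26.6 for divergent and 15.4 for overlapping pairs. All divergent and convergent peaks then exceeded the median fold, so the odds ratio could not be computed. At −log10 q of at least 10 the overlapping median was 11.9 and the odds ratio of divergent against convergent for fold turned to 1.44. Peaks of 400 to 800 bp numbered 157, with 10.2% tandem, a divergent median fold of 11.04, and odds ratios of 1.58 for the summit in the gap and 1.14 for fold. The fold ratio was 1.15 with overlaps of at least 100 bp and 1.02 with genes of at least 500 bp. The share of tandem summits nearer the start fell to 44.4% and 42.9% with overlaps of at least 50 and 100 bp, and was 37.5% at 400 to 800 bp and 20 of 40 with genes of at least 500 bp. Overlapping pairs made up 63.3% at overlaps of at least 100 bp. The cause of the changes in direction was not tested. Counts of 23 convergent and 50 tandem peaks limit all of these comparisons, and no replicate exists.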

Other observations

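Peaks tied between genes with other kinds of identifiers, such as microRNA precursors and other RNA genes, were outside the rule. A set of 102 chromosomal peaks was assigned to a single nuclear gene together with at least 1 such identifier, with a median fold of 10.2 (range 3.86 to 76.1). Another 43 were assigned to several such identifiers alone, with a median fold of 7.01 (range 3.74 to 51.9).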
